A study of Homo sapiens with 12 samples.

Results

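The genes described here are the 8 subunits of condensin and the 2 human type II topoisomerases: SMC2, SMC4, NCAPD2, NCAPD3, NCAPG, NCAPG2, NCAPH, NCAPH2, TOP2A and TOP2B. They were chosen by symbol, each matched 1 row of the count table, and they are 10 of its 62069 genes. All 10 passed the filter on low counts, which left 15284 genes for testing.

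RNA was sequenced from IMR90 ER:RAS, a line of human fibroblasts of the lung with a RAS oncogene that is held inactive by a fused estrogen receptor domain. Adding 4-hydroxytamoxifen (4OHT) releases RAS and brings on oncogene-induced senescence (OIS). The 4 groups held 3 libraries each. Cells labelled as not induced, which received the vector, are called vector, and cells with the vector and 100 nM 4OHT are called vector/4OHT. The groups shXPO7_3/4OHT and shXPO7_5/4OHT received 4OHT and a short hairpin RNA against XPO7, a nuclear transport receptor. All cells carried ER:RAS, were at passage 13 and were cultured for 7 days with 1 change of medium on day 4, and the labels give day 5 after induction for every library, those without 4OHT included. No library carried an XPO7 hairpin without 4OHT, and vector/4OHT differed from vector by the drug as well as by active RAS. Whether the 3 libraries of each group were separate cultures is not stated, and p-values therefore reflect only how these libraries vary, possibly for technical reasons. Libraries are named by their group and by the last letter of their label (T, A, B or C).

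Condensins are ring-shaped ATPases that extrude loops of DNA and shape mitotic chromosomes. SMC2 and SMC4 form the core of both complexes, condensin I adds NCAPD2, NCAPG and NCAPH, and condensin II adds NCAPD3, NCAPG2 and NCAPH2. Condensin I reaches chromatin once the nuclear envelope has broken down, while condensin II is nuclear throughout the cell cycle. Type II topoisomerases pass one DNA duplex through a break in another. TOP2A is made by dividing cells and separates sister chromatids, and TOP2B is made by cycling and resting cells alike and acts at transcribed genes.

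Totals ran from 28534141 to 60397769 counts per library. XPO7, the targeted gene, stood at 127 to 144 CPM (counts scaled to the same total in each library) in vector/4OHT, at 26.4 to 28.7 CPM in shXPO7_3/4OHT and at 50.8 to 54.0 CPM in shXPO7_5/4OHT. All 8 fibroblast markers examined (COL1A1, COL1A2, COL3A1, VIM, THY1, PDGFRB, LUM and DCN) were above 1 CPM in every group, with summed levels of 16700 to 27900 CPM. These sums were 24000 to 27900 CPM in vector and 16700 to 18200 CPM in vector/4OHT. Blood markers summed to at most 0.219 CPM, with CD3E and HBB at 0. Endothelial markers summed to 1.90 to 5.27 CPM, with PECAM1 and CDH5 at 0. VWF was above 1 CPM in every group and KDR in shXPO7_3/4OHT. The 6 epithelial markers summed to 69.1 to 84.6 CPM in vector and 40.2 to 46.3 CPM in vector/4OHT. KRT8, KRT18 and KRT19 were above 1 CPM in every group and EPCAM in vector. None of the 6 was at 0 in all libraries of a group. The part of these shifts in the results below was not tested.

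In OIS 9 of the 10 genes fell, which left TOP2B as the exception. The background was high, since 50.9% of all genes tested were called in vector/4OHT against vector and 26.1% were called lower. The median log2 fold change of the 10 genes was -1.69, beside -0.0068 over all genes tested. The libraries of vector and vector/4OHT did not overlap for 9 of the 10 genes, against 63.2% of all genes. With a correction for the GC content and length of transcripts, described below, 9 of the 10 were again called, at a background of 63.9%. In these bulk samples fewer cells in a phase of the cell cycle and less RNA per cell cannot be told apart. The tests were edgeR's quasi-likelihood test with Benjamini-Hochberg adjustment over all genes tested, at a threshold of 0.05, and an exact permutation test of 3 libraries against 3, which cannot go below p = 0.1.

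**Figure D1:**
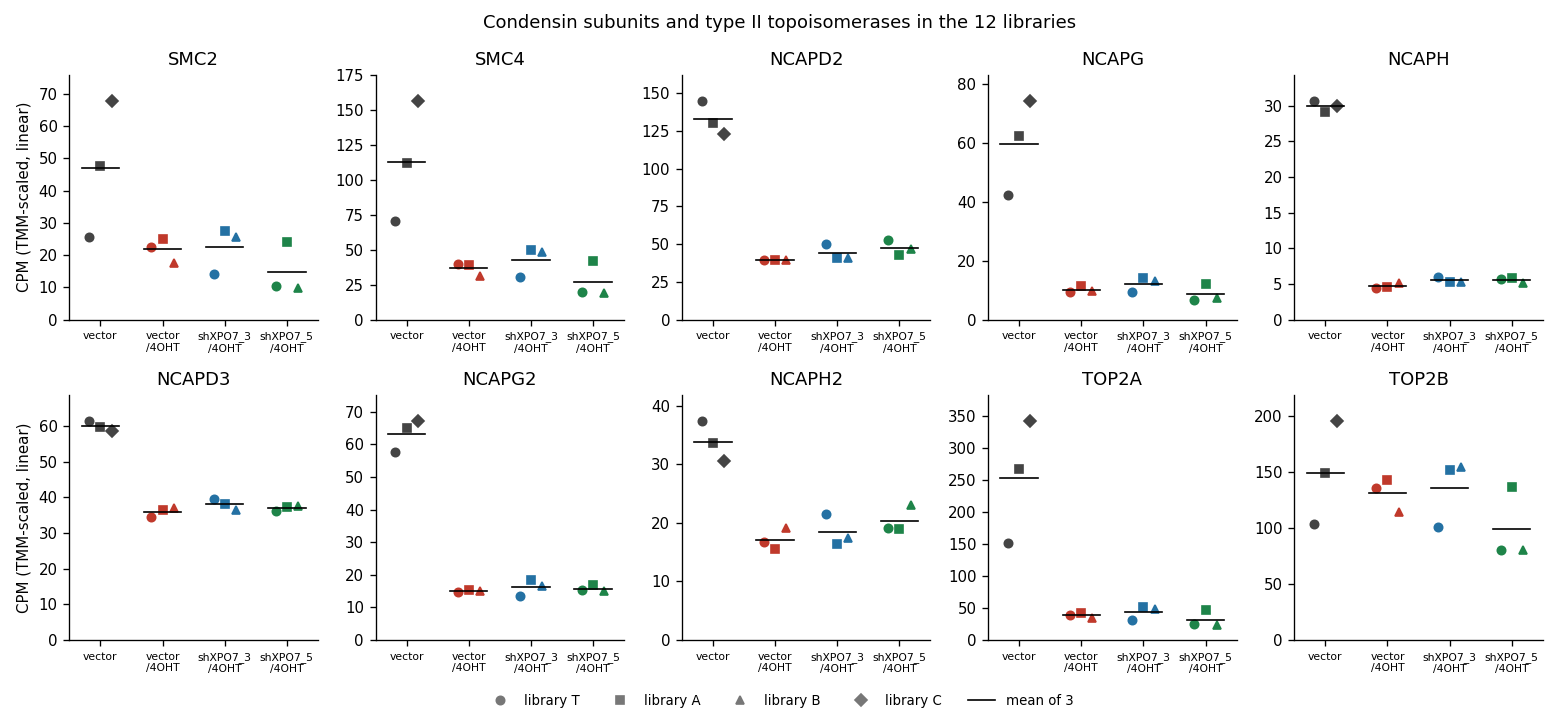
Level of each gene (CPM scaled by TMM, linear axis from 0, a different scale in each panel) in the 12 libraries, grouped by condition, with the library letter as the marker shape and the mean of 3 libraries as a bar. TOP2A is at 152 to 341 CPM in vector and at 34.0 to 42.9 CPM in vector/4OHT, while the TOP2B values of the same libraries overlap.

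Among the condensin I subunits, NCAPH (ENSG00000121152, chr2:96335787-96373845, plus strand; gene positions are those of GENCODE 29 on GRCh38), the kleisin that closes the ring, and NCAPG fell by like amounts. NCAPH was at 30.7, 29.1 and 30.0 CPM in vector T, A and C and at 4.40, 4.61 and 5.14 CPM in vector/4OHT T, A and B. Every vector library was thus far above every vector/4OHT library, and NCAPH retained 15.8% of its vector level, with a log2 fold change of -2.66 ± 0.09 (SE; adjusted p = 3.01e-10). NCAPG (ENSG00000109805, chr4:17810902-17844862, plus strand), a HEAT-repeat subunit, stood at 42.4, 62.6 and 74.4 CPM in vector and at 9.29, 11.5 and 9.85 CPM in vector/4OHT. Its groups were apart although the vector libraries differed widely, and the log2 fold change was -2.55 ± 0.25 (adjusted p = 3.63e-06). NCAPD2 (ENSG00000010292, chr12:6493356-6531955, plus strand), the other HEAT-repeat subunit of the complex, was at 145, 130.3 and 123 CPM in vector and at 39.8, 39.2 and 39.6 CPM in vector/4OHT. The 3 vector/4OHT libraries hardly differed, with a coefficient of variation of 0.769%, which is below what counting error alone would give. The log2 fold change of NCAPD2 was -1.75 ± 0.10 (adjusted p = 4.04e-08).

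The condensin II subunits also fell, by unequal amounts. NCAPG2 (ENSG00000146918, chr7:158631311-158704829, minus strand), the counterpart of NCAPG, was at 57.6, 65.1 and 67.0 CPM in vector and at 14.8, 15.4 and 15.1 CPM in vector/4OHT. Its log2 fold change of -2.07 ± 0.11 (adjusted p = 1.12e-08) left 23.9% of the vector level. NCAPH2 (ENSG00000025770, chr22:50508216-50523472, plus strand), the kleisin of condensin II, was at 37.3, 33.7 and 30.6 CPM in vector and at 16.7, 15.6 and 19.2 CPM in vector/4OHT. The groups did not overlap, and 50.7% of the vector level remained, with a log2 fold change of -0.98 ± 0.13 (adjusted p = 4.10e-05). NCAPD3 (ENSG00000151503, chr11:134150119-134225454, minus strand), the counterpart of NCAPD2, was at 61.3, 59.9 and 58.7 CPM in vector and at 34.4, 36.5 and 37.1 CPM in vector/4OHT. It kept the highest share of the 8 condensin genes, 60.0% of the vector level, and its log2 fold change was -0.74 ± 0.06 (adjusted p = 1.12e-06).

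The shared core fell with wide errors. SMC4 (ENSG00000113810, chr3:160399274-160434962, plus strand) was at 70.4, 112 and 157 CPM in vector and at 40.2, 38.8 and 31.0 CPM in vector/4OHT. Its log2 fold change was -1.63 ± 0.33 (adjusted p = 0.00144), and 32.4% of the vector level remained. SMC2 (ENSG00000136824, chr9:104094260-104141417, plus strand) was at 25.7, 47.6 and 67.8 CPM in vector and at 22.6, 25.1 and 17.7 CPM in vector/4OHT. The lowest vector library, T, lay just above the highest vector/4OHT library, and the log2 fold change was -1.11 ± 0.39 (95% interval -1.97 to -0.26, adjusted p = 0.0318). The SMC2 call was kept without vector T (-1.41) and lost without each of the other 5 libraries, with -1.12 without vector A, -0.75 without vector C, -1.14 without vector/4OHT T, -1.22 without vector/4OHT A and -0.998 without vector/4OHT B (edgeR adjusted p of 0.0549 to 0.139).

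TOP2A and TOP2B separated. TOP2A (ENSG00000131747, chr17:40388516-40417950, minus strand) was at 152, 267 and 341 CPM in vector and at 38.6, 42.9 and 34.0 CPM in vector/4OHT. The lowest vector library was above every vector/4OHT library, and the log2 fold change was -2.72 ± 0.33 (95% interval -3.44 to -2.01, adjusted p = 2.16e-05), which left 15.2% of the vector level. TOP2B (ENSG00000077097, chr3:25597905-25664907, minus strand) was at 104, 149 and 195 CPM in vector and at 136, 143 and 114 CPM in vector/4OHT. The vector/4OHT values lay within the range of the vector values. The log2 fold change was -0.19 ± 0.25 (95% interval -0.74 to 0.36, adjusted p = 0.558, exact permutation p = 0.7), so a moderate fall or a slight rise was not detectable here. Without vector C the TOP2B value was 0.053.

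**Figure D2:**
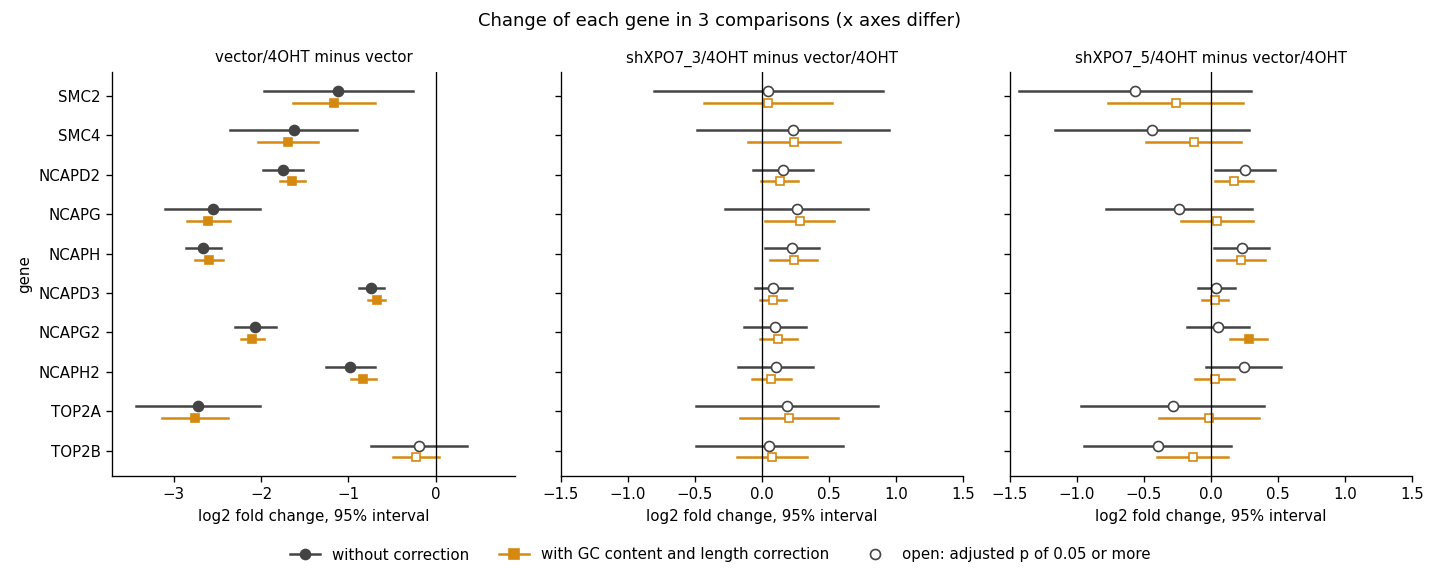
Log2 fold change of each gene with its 95% interval in 3 comparisons, without (circles) and with (squares) the correction for GC content and length, filled where the adjusted p is under 0.05. In OIS 9 of 10 genes are called in both fits and TOP2B crosses 0, while in the comparisons of hairpin libraries the values lie between -0.57 and 0.28 and 1 of them, NCAPG2 with shXPO7_5 after the correction, is called.

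The stretches upstream of TOP2A, TOP2B, NCAPH and NCAPG2 are shown because TOP2A, NCAPH and NCAPG2 fell together while TOP2B, from the same gene pair as TOP2A, was not called. They come from RefSeq windows on GRCh38.p14, which held 9 of the 10 genes and gave NCAPH2 no entry, and only the bases before the first exon of the gene in GENCODE 29 are printed. Each window of 250 bases before a start was searched on both strands for the cell cycle genes homology region (CHR, TTTGAA or TTCGAA), for the CCAAT box (CCAAT), and for E2F sites (TTTCCCGC, TTTCGCGC, TTTGCCGC or TTTGGCGC). These are motifs of cell cycle promoters, where CHR elements bind the MuvB complexes, CCAAT boxes bind NF-Y and E2F sites bind E2F factors. Of all 35116 RefSeq windows of this length, 14.3% held a CHR, 32.0% a CCAAT box and 2.8% an E2F site. The sequences read 5′ to 3′ in the direction of the gene, with matches in capitals, where ATTGG and TTCAAA are CCAAT and TTTGAA on the other strand.
TOP2A (chr17:40417951-40418146, minus strand): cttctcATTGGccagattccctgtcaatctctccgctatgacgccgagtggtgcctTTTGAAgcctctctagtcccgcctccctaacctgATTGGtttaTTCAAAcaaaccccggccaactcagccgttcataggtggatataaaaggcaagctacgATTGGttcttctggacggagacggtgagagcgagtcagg
TOP2B (chr3:25664908-25665157, minus strand): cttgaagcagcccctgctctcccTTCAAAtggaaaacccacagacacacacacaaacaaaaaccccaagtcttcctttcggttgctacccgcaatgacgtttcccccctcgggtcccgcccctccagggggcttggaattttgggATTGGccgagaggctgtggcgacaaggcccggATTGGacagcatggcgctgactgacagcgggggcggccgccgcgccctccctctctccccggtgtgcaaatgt
NCAPH (chr2:96335516-96335765, plus strand): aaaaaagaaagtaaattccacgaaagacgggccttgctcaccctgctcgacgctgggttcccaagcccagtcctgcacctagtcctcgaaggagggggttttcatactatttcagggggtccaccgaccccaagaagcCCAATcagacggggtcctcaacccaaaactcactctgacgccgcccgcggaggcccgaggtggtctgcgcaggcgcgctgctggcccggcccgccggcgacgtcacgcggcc
NCAPG2 (chr7:158704830-158705054, minus strand): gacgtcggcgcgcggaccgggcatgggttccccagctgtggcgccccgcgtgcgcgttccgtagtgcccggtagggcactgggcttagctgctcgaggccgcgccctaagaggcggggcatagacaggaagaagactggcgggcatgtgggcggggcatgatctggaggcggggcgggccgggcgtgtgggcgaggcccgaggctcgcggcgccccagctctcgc

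The TOP2A window held 2 CHR and 4 CCAAT matches, the last of which lies in bases that GENCODE gives as exon and that are not printed. The TOP2B window shown, the farther upstream of 2, held 1 CHR and 2 CCAAT matches, and the other TOP2B window held none. NCAPH had 1 CCAAT box and NCAPG2 no match. Of the windows not printed, that of NCAPD2 held 1 CHR and 4 CCAAT matches, that of NCAPG 1 CHR, 1 of 2 windows of SMC4 1 CHR, and 1 of 2 windows of NCAPD3 2 CCAAT boxes and 1 E2F site, while neither window of SMC2 held any. No matches overlapped. Matches were thus found beside TOP2A and beside TOP2B alike, and a match is a description of letters, not of a bound site.

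In 4 of 5 pairs of counterparts the ratio of the 2 genes changed in OIS without overlap between the groups. Ratios were taken per library between levels per length (TPM, counts divided by exon length and scaled to the same total in each library), and their change was tested on log2 ratios of counts, which do not depend on library scaling. The TOP2A/TOP2B ratio was 1.37, 1.68 and 1.64 in vector T, A and C and 0.267, 0.281 and 0.279 in vector/4OHT T, A and B, a change of -2.50 on the log2 scale. TOP2A was thus above TOP2B in each vector library and far below it in each vector/4OHT library. The vector libraries, among which TOP2A and TOP2B each varied widely, differed less in this ratio.

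The kleisin ratio NCAPH/NCAPH2 was 0.791, 0.833 and 0.945 in vector and 0.254, 0.284 and 0.259 in vector/4OHT, a log2 change of -1.68. NCAPD2/NCAPD3 was 3.32, 3.06 and 2.93 in vector and 1.624, 1.509 and 1.5 in vector/4OHT, a log2 change of -1.01. The transcripts of NCAPH and NCAPD2 thus fell to a lower share than those of their condensin II counterparts, NCAPH2 and NCAPD3. This did not hold against all of condensin II, since NCAPG2 retained 23.9% of its vector level and NCAPD2 29.8%. SMC4/SMC2 was 2.092, 1.803 and 1.766 in vector and 1.362, 1.182 and 1.337 in vector/4OHT, a log2 change of -0.54. For these 4 pairs the groups did not overlap (exact permutation p = 0.1 each, the smallest this design allows). NCAPG/NCAPG2, at 1.05, 1.37 and 1.58 in vector and 0.889, 1.06 and 0.926 in vector/4OHT, overlapped (log2 change -0.45, exact permutation p = 0.2). Adjusted over the 5 pairs (Benjamini-Hochberg), the exact permutation p was 0.125 for the 4 and 0.2 for NCAPG/NCAPG2. With the GC correction the changes were -2.51, -1.76, -0.96, -0.55 and -0.49 in the order given here, so the direction of each was kept.

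**Figure D3:**
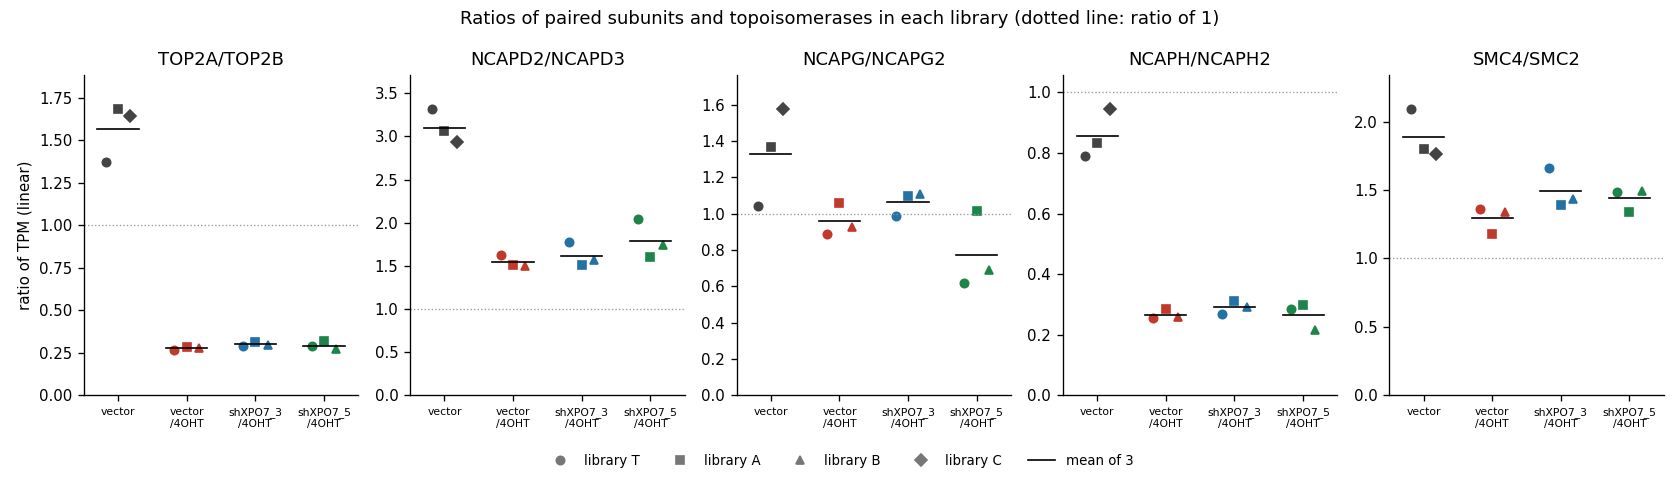
Ratio of TPM within each pair in the 12 libraries (linear axes from 0, a different scale in each panel), with the library letter as the marker shape, the mean of 3 libraries as a bar and a dotted line at a ratio of 1. TOP2A/TOP2B falls from 1.37 to 1.68 in vector to between 0.267 and 0.319 in the 9 libraries with 4OHT.

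Per length, TOP2A was the most abundant of the 10 transcripts in vector, at 169 ± 66.9 TPM (SD, n = 3), followed by TOP2B at 106 ± 34.7 TPM and NCAPD2 at 87.3 ± 5.36 TPM; the 3 overlapped in turn. SMC4 (57.5 ± 23.0 TPM), NCAPG (52.2 ± 15.2 TPM) and NCAPH2 (45.8 ± 3.53 TPM) came next and overlapped too. NCAPH (39.0 ± 0.865 TPM), NCAPG2 (38.7 ± 3.88 TPM), SMC2 (31.3 ± 14.6 TPM) and NCAPD3 (28.1 ± 0.0761 TPM) were lowest, again with overlaps between neighbours. With the summed exon length used here, the gaps between neighbours that held in every library were those below NCAPD2 and below NCAPH2. The order depended on the length taken. With the longest transcript SMC2 was lowest (24.7 ± 11.6 TPM), and SMC4 (65.1 ± 26.2 TPM) was not set apart from NCAPD2 (74.7 ± 4.39 TPM).

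In vector/4OHT TOP2B led at 86.9 ± 10.2 TPM, with every library above every library of NCAPD2 (24.4 ± 0.328 TPM), TOP2A (24.0 ± 2.81 TPM) and NCAPH2 (21.8 ± 2.21 TPM), which overlapped in turn. SMC4, NCAPD3 and SMC2 formed the next step, at 17.4 ± 2.45, 15.8 ± 0.493 and 13.5 ± 2.36 TPM. NCAPG2 and NCAPG were at 8.65 ± 0.125 and 8.30 ± 0.903 TPM, and NCAPH was lowest at 5.76 ± 0.429 TPM, below every library of NCAPG. TOP2B also led and NCAPH was also lowest in both hairpin groups, where TOP2B stood at 89.3 ± 20.6 TPM with shXPO7_3 and 64.0 ± 23.4 TPM with shXPO7_5 and NCAPH at 6.67 ± 0.415 and 6.54 ± 0.589 TPM; with shXPO7_5 the values of NCAPH overlapped those of NCAPG.

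The comparisons of hairpin libraries with vector/4OHT ask how these genes change in cells with active RAS when XPO7 is reduced. With shXPO7_3, none of the 10 genes was called by edgeR (background 0.124% of all genes) or by DESeq2 (background 0.576%). By edgeR 1 of the 10, NCAPH, had an unadjusted p under 0.05, beside 979 of all 15284 genes. All 10 values were above 0 under every scaling and filter tried, with a median of 0.13 beside -0.0031 over all genes and a range of 0.045 to 0.26. Without shXPO7_3/4OHT A, shXPO7_3/4OHT B or vector/4OHT B, however, SMC2 (-0.12, -0.070 and -0.090) and TOP2B (-0.033, -0.052 and -0.039) were below 0, and without shXPO7_3/4OHT T so was NCAPH2 (-0.028). The groups did not overlap for 2 of the 10, against 14.6% of all genes. NCAPH was at 5.98, 5.31 and 5.28 CPM in shXPO7_3/4OHT T, A and B, each above the 4.40 to 5.14 CPM of vector/4OHT (log2 fold change 0.22 ± 0.09, 95% interval 0.02 to 0.42, adjusted p = 0.685). NCAPD2, at 50.0, 40.9 and 41.0 CPM, was also above vector/4OHT in each library, with shXPO7_3/4OHT T standing apart (log2 fold change 0.15 ± 0.10, adjusted p = 0.9995). Without that library the NCAPD2 value was 0.045.

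The other 8 genes overlapped with shXPO7_3. TOP2A was at 31.0, 51.1 and 49.2 CPM, with 1 library below and 2 above the range of vector/4OHT, and its log2 fold change was 0.19 ± 0.31 (95% interval -0.49 to 0.87). TOP2B had a value of 0.054 ± 0.25, SMC4 0.23 ± 0.33 and SMC2 0.045 ± 0.39. NCAPG had the largest value, 0.26 ± 0.25, and NCAPG2, NCAPH2 and NCAPD3 stood at 0.097 ± 0.11, 0.10 ± 0.13 and 0.082 ± 0.063. With the library letter as a block together with the GC correction, NCAPG was called at 0.27 (edgeR adjusted p = 0.0346), at a background of 2.51%. It was called in that 1 of 15 alternatives only. The GC correction alone (adjusted p = 0.309) and the block alone (adjusted p = 0.733) did not call it. The letters were not taken as pairs, so this call is not read as a result.

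With shXPO7_5, again none of the 10 genes was called by edgeR (background 0.589%) or by DESeq2 (background 2.79%). By edgeR 2 of the 10, NCAPD2 and NCAPH, had an unadjusted p under 0.05, a share near that of all genes (3302 of 15284). The values were split, 5 above and 5 below 0, with a median of -0.097 beside 0.0058 over all genes. NCAPH was at 5.66, 5.83 and 5.19 CPM in shXPO7_5/4OHT T, A and B and NCAPD2 at 52.7, 42.5 and 46.5 CPM, in each library above vector/4OHT, with log2 fold changes of 0.23 ± 0.09 (adjusted p = 0.208) and 0.26 ± 0.10 (adjusted p = 0.207). These were the 2 genes without overlap, against 26.8% of all genes. NCAPH and NCAPD2 were thus each above vector/4OHT in 6 of 6 libraries with a hairpin. NCAPH was still at 18.5% and 18.6% of its vector level and NCAPD2 at 33.1% and 35.6%. Both comparisons share the vector/4OHT libraries. The 2 of 10 genes without overlap lie near the 14.6% and 26.8% of all genes, so these counts are no result about the 2 genes.

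The 5 values below 0 were those of SMC2 (-0.57 ± 0.40), SMC4 (-0.44 ± 0.33), TOP2B (-0.40 ± 0.25), TOP2A (-0.29 ± 0.31) and NCAPG (-0.24 ± 0.25), and all 5 genes were split by library. TOP2A was at 24.8 and 23.3 CPM in shXPO7_5/4OHT T and B but at 46.6 CPM in A, and TOP2B at 80.7 and 80.9 CPM against 137 CPM. SMC2 stood at 10.4 and 9.72 CPM against 24.0 CPM and SMC4 at 20.1 and 19.0 CPM against 42.0 CPM. Without shXPO7_5/4OHT A, SMC4 (-0.90, adjusted p = 0.0488) and NCAPD2 (0.33, adjusted p = 0.0449) were called, while the background rose to 23.0% of genes. NCAPH2, NCAPG2 and NCAPD3 had values of 0.25 ± 0.13, 0.056 ± 0.11 and 0.043 ± 0.063.

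Between the hairpins, shXPO7_5/4OHT against shXPO7_3/4OHT, edgeR (background 0.0131%) and DESeq2 called none of the 10 genes. By edgeR none had an unadjusted p under 0.05, beside 1819 of all 15284 genes. The libraries overlapped for all 10, while they did not for 9.71% of all genes. The values ran from -0.67 for SMC4 (95% interval -1.39 to 0.06) to 0.15 for NCAPH2 (-0.13 to 0.42). Over all genes these differences followed GC content (rho = 0.70), and with the GC correction SMC4 was at -0.37 (95% interval -0.72 to -0.016, adjusted p = 0.457) and NCAPH2 at -0.041.

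The ratios changed little with knockdown. TOP2A/TOP2B was 0.288, 0.316 and 0.299 in shXPO7_3/4OHT, each above vector/4OHT, a log2 change of 0.12 (exact permutation p = 0.1). SMC4/SMC2, at 1.66, 1.39 and 1.44, was likewise above vector/4OHT in each library (log2 change 0.21, p = 0.1 by the exact permutation test), and both had an adjusted p of 0.25 over the 5 pairs. The other 3 pairs overlapped with shXPO7_3, and all 5 overlapped with shXPO7_5, where TOP2A/TOP2B was 0.289, 0.319 and 0.270 and SMC4/SMC2 was 1.485, 1.34 and 1.495.

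Libraries of 1 group differed in how their counts followed the GC content of transcripts, and the genes with AT-rich transcripts followed that trend. For each library the rank correlation between the deviation of every gene from its group mean and the GC content of its longest transcript was taken, and it ran from -0.69 in shXPO7_5/4OHT A to 0.71 in shXPO7_5/4OHT B. SMC4, SMC2, NCAPG, TOP2A, TOP2B and NCAPG2 have 37.3% to 41.4% GC, and their deviations from the group mean had a Pearson r of -0.96 to -0.86 with the trend of the library over the 12 libraries. NCAPH, NCAPD3, NCAPD2 and NCAPH2, at 47.6% to 62.2% GC, had r of 0.25, 0.56, 0.80 and 0.90. As points from 12 libraries in 4 groups, these are descriptions.

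The deviations of SMC2 spanned 1.60 on the log2 scale and those of NCAPD3 0.12. TOP2A and TOP2B, which moved apart in OIS, deviated together within groups (r = 0.99 over the 12 libraries), as did SMC2 and SMC4 (r = 0.99), while TOP2A and NCAPH2 deviated in opposite directions (r = -0.80). After the correction the span was 0.93 for SMC2, 0.73 for TOP2A and 0.12 for NCAPD3.

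**Figure D4:**
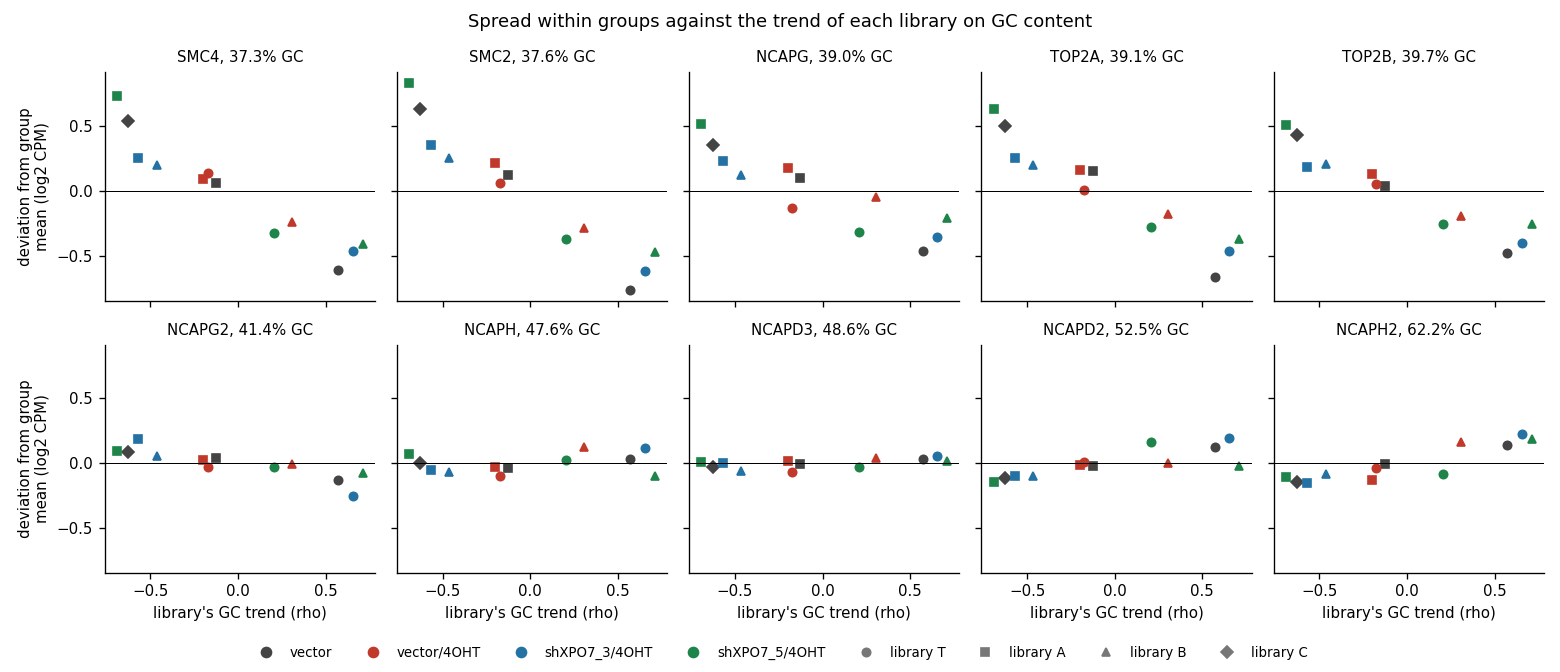
Deviation of each gene from its group mean (log2 CPM) against the trend of the same library on GC content (Spearman's rho over all genes), 1 point per library, coloured by group, with panels in order of GC content. The 6 genes of 37.3% to 41.4% GC slope downward (r = -0.96 to -0.86), and NCAPH2, at 62.2% GC, slopes upward (r = 0.90).

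Over all genes the log2 fold changes with shXPO7_5 followed GC content (rho = 0.68), more than those with shXPO7_3 (0.11) or in OIS (-0.13). The values of the 10 genes were therefore also taken with the correction. The correction is fitted per library, so it takes out any difference between groups that follows GC content or length, technical or not. Whether this trend was technical was not tested. With shXPO7_5 the corrected values of SMC2, SMC4, TOP2B, TOP2A and NCAPG were -0.26, -0.13, -0.14, -0.013 and 0.048, so NCAPG turned in sign, and NCAPH2 went from 0.25 to 0.029. NCAPH (0.23) and NCAPD2 (0.18) kept their sign without a call. NCAPG2 went from 0.056 to 0.28 (95% interval 0.15 to 0.42, adjusted p = 0.0333) and was called, at a background of 3.08% of genes; with the block and the correction together it was called at 6.26%. In OIS SMC2 was called with the correction at -1.17 ± 0.22 (adjusted p = 0.000398) and TOP2B was not, at -0.23 (95% interval -0.49 to 0.03).

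Exons of 5 of the 10 genes (NCAPG, SMC4, NCAPD2, NCAPD3 and TOP2B) overlap genes on the opposite strand in GENCODE, and since the strand setting of the counting is not given in the sources used here, reads could have been lost or added there. LCORL covers 33.1% of the exon bases of NCAPG, TRIM59 and IFT80 cover 18.5% and 7.2% of those of SMC4, MRPL51 7.5% of NCAPD2, JAM3, VPS26B and AP001775.2 5.1%, 2.7% and 1.1% of NCAPD3, and RARB 0.5% of TOP2B. MIR4442, on the same strand, covers a further 0.5% of TOP2B. TOP2A, NCAPH, NCAPH2, NCAPG2 and SMC2 had no such overlap.

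The genes that act on or beside condensins were followed as lists taken from their known roles. All 15 condensin regulators and chromosome partners were called in OIS, 13 lower and 2 higher, with a median log2 fold change of -2.72, beside a background of 24.8% called higher and the 26.1% called lower. MKI67, a coat of mitotic chromosomes, fell from 270.2 ± 17.3 to 27.5 ± 2.52 CPM (SD, n = 3; log2 fold change -3.30 ± 0.10). BIRC5, the survivin subunit of the chromosomal passenger complex, fell by 3.15 and PLK1, a mitotic kinase that phosphorylates condensin II, by 3.08 on the log2 scale. MCPH1, which restrains condensin II in interphase, rose from 18.3 ± 1.17 to 23.4 ± 1.95 CPM (log2 fold change 0.36 ± 0.10, adjusted p = 0.0107), and AKAP8, an anchoring protein that binds condensin to chromatin, rose by 0.26 ± 0.08 (adjusted p = 0.0121). The call on AKAP8 was lost with upper-quartile scaling and without vector C, and that on MCPH1 without vector A.

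Of cohesin and its regulators, 7 of 16 genes were called in OIS, all lower, with a median of -0.37, beside the 50.9% of all genes called and 26.1% called lower. SGO1, the protector of centromeric cohesion, fell by 2.53, ESPL1, the separase that cuts cohesin, by 2.35 and ESCO2, an acetyltransferase that acts in S phase, by 2.21 on the log2 scale. Of the 3 subunits that close the cohesin ring, named after their values were seen, SMC1A fell from 174 ± 6.41 to 118 ± 2.58 CPM (-0.56 ± 0.06) and RAD21 from 158 ± 35.5 to 106 ± 7.49 CPM (-0.58 ± 0.19, adjusted p = 0.0249), while SMC3 was not called (-0.69 ± 0.34, adjusted p = 0.105). The RAD21 call was lost without vector A, vector C, vector/4OHT T or vector/4OHT B, and SMC3 was called with the GC correction at -0.73. Of the 8 genes of the SMC5/6 complex, which acts in DNA repair, 2 were called, a share close to the 26.1% of all genes called lower and no result about the complex. Both were lower, NSMCE4A by 0.53 and NSMCE3 by 0.23 on the log2 scale. The NSMCE3 call was lost with the GC correction and without vector T, vector A, vector/4OHT T or vector/4OHT A.

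Of 10 other topoisomerases and genes that repair topoisomerase adducts, 3 rose and 3 fell in OIS. These shares are near the 24.8% and 26.1% of all genes, so these counts are no result about the list. The GC correction called all 10, 7 higher and 3 lower, at a background of 63.9% of all genes. TOP1, which relaxes supercoils at transcribed genes, rose from 217 ± 25.2 to 366 ± 17.0 CPM (log2 fold change 0.76 ± 0.13, adjusted p = 0.000489), opposite to TOP2A. SPRTN, a protease that digests proteins crosslinked to DNA, rose by 0.54 ± 0.16 (adjusted p = 0.0143) and TDP2, which removes TOP2 from DNA ends, by 0.38 ± 0.13 (adjusted p = 0.0279). RMI2 and RMI1, partners of TOP3A, fell by 2.01 and 1.20, and TDP1, which removes TOP1, fell by 0.71. The calls on TOP1, RMI1, RMI2 and TDP1 held in each of 15 alternatives. The SPRTN call was lost without vector T or vector A, and the TDP2 call with upper-quartile scaling and without vector T, vector A, vector/4OHT A or vector/4OHT B.

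**Figure D5:**
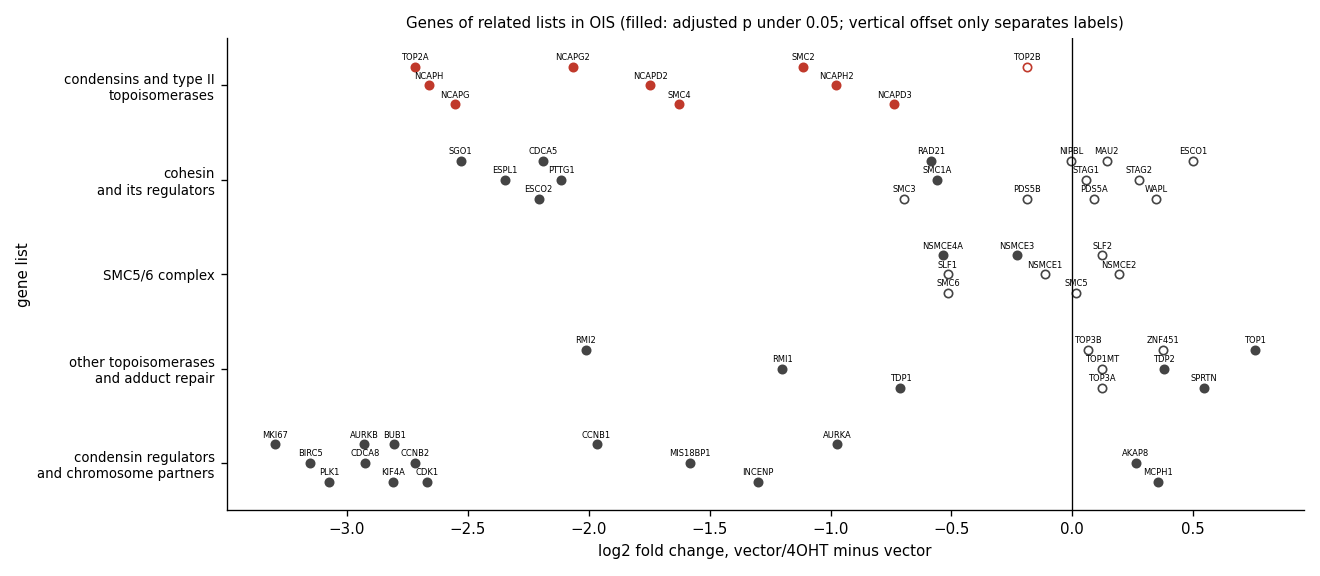
Log2 fold change in OIS (vector/4OHT minus vector) of the condensin and TOP2 genes (red) and of the genes of 4 related lists (dark grey), filled where the adjusted p is under 0.05. TOP2B, at -0.19, lies with the uncalled genes, while TOP1 lies furthest to the right at 0.76 and MKI67 furthest to the left at -3.30.

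In the comparisons of hairpin libraries, 3 of the 15 condensin regulators and partners were called, all higher with shXPO7_5, at a background of 0.478% called higher. PLK1 was at 12.1 ± 1.09 against 7.32 ± 1.04 CPM (log2 fold change 0.72 ± 0.12, adjusted p = 0.0265). AURKB, the kinase of the chromosomal passenger complex, was at 5.17 ± 0.135 against 3.34 ± 0.242 CPM (0.63 ± 0.11, adjusted p = 0.0285) and CDCA8, the borealin subunit of that complex, at 9.21 ± 0.658 against 6.22 ± 0.468 CPM (0.57 ± 0.10, adjusted p = 0.0324). The count with shXPO7_5 depended on the fit. The GC correction called 8 genes (background 3.08%), DESeq2 6 (2.79%) and the fit without shXPO7_5/4OHT A 9 (23.0%), all higher. With only the 2 groups compared none was called (background 0.069%). With the GC correction PLK1, AURKB and CDCA8 were called at 0.56, 0.51 and 0.49, and each kept its call in 1 of the 6 fits without 1 library, that without shXPO7_5/4OHT A. With shXPO7_3 PLK1, AURKB and CDCA8 had values of 0.45, 0.47 and 0.38 with adjusted p of 0.294, 0.167 and 0.268, but the GC correction called them there too, at 0.43, 0.46 and 0.38 (adjusted p = 0.0427, 0.0355 and 0.0252). That correction called 6 of the 15 genes with shXPO7_3 (background 2.22%) and DESeq2 called 2 (background 0.576%), all higher. Between the hairpins the values were 0.27, 0.16 and 0.18, none of them called. The other 3 lists gave no call by edgeR over all 12 libraries without the correction, while PTTG1, the securin that inhibits ESPL1, was called higher with both hairpins under it. CDCA5, the sororin that protects cohesion, was called higher with shXPO7_5 under the correction, and DESeq2 called PTTG1 and CDCA5 with shXPO7_5. Without shXPO7_5/4OHT A, 9 cohesin genes, 2 SMC5/6 genes and 6 of the topoisomerase list were called with shXPO7_5, where 23.0% of all genes were.

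Across the 12 libraries, where vector stands apart from the 9 libraries with 4OHT, the genes whose log2 CPM was most like that of TOP2A were ANLN, a scaffold of the cytokinetic ring, KIF11, a mitotic spindle motor, and BRIP1, a DNA repair helicase (Pearson r of 0.999, 0.998 and 0.998). Those most like TOP2B were BBX, PHF3 and PKN2 (0.993 each), and those most like NCAPH2 were TONSL, which acts at stalled replication forks, AKNA and GPX4 (0.994, 0.989 and 0.987). The partners of TOP2A and TOP2B have transcripts of 37.3% to 40.0% GC and those of NCAPH2 of 59.1% to 63.6% GC, close to the gene each is like. Among the members, TOP2A was most like NCAPG (r = 0.996) and NCAPD3 most like NCAPH (r = 0.994), while NCAPH2 and TOP2B showed no common course (r = -0.01).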

How the data were processed

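RNA was measured by stranded poly(A) RNA-seq in 12 libraries of IMR90 ER:RAS cells, 4 groups of 3 taken from the labels. Per the submitters' processing notes, CASAVA 1.8.4, TopHat2 2.0.11 and featureCounts 1.18.0 were used with hg19/GRCh37. The deposited values are raw counts per Ensembl gene, which the authors had not normalized. For the annotation, strand setting and multi-mapped reads, the sources used here give nothing. The table held 62069 genes and 92 spike-in entries, all at 0.

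Counts were filtered (filterByExpr), scaled by TMM and fitted over the 12 libraries with the quasi-likelihood test of edgeR 4.0.16 (R 4.3.3, limma 3.58.1), with Benjamini-Hochberg adjustment at 0.05 over the 15284 genes kept. The methods read here name no test for these comparisons. Exact two-sided permutation tests and ratios (0.5 counts added) used scipy 1.17.1. All levels in CPM use TMM. TPM used the summed exon length of GENCODE 29, matched by Ensembl identifier, which covered 99.49% of counts, and no coordinate was converted between builds. The GC correction fitted, per library, a spline of 5 degrees of freedom on GC content and length of the longest transcript, as an offset. Alternatives were RLE and upper-quartile scaling, no filter beyond 1 count, a filter of 1 CPM in 6 libraries, the library letter as a block, only the 2 groups compared, DESeq2 1.42.0 and leaving out each library. Those for the related lists were added after the data were seen.

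With totals of 28534141 to 60397769 counts, counting error was small beside the spread between libraries when averaged over genes. Chi-square per gene between replicates was 4.6 to 63.1, which is above sampling noise for every pair. This average does not hold for each of the 10 genes. In vector/4OHT the coefficients of variation of NCAPD2 (0.769%) and NCAPG2 (1.8%) were below what counting error alone would give. The scripts were tested on simulated counts. Deviations of same-letter libraries had correlations of -0.17 to 0.55 over pairs of groups. At least 1 of the 3 letters was under 0.1 in each comparison with a hairpin group, and OIS shares only 2 letters, so the letters were not taken as pairs. The genes and lists were chosen with earlier results of these data known. Named genes are the 10 genes, XPO7, the list genes of largest change or rise among those called (up to 3 each), list genes called with a hairpin, and the 3 genes most like TOP2A, TOP2B and NCAPH2.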

Additional observations from a re-analysis of the deposited data

How the results depend on the processing

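For each comparison, 90 values of a gene under an alternative that did not leave out a library were set against the reported value, and 88 in OIS, 89 with shXPO7_3, 86 with shXPO7_5 and 82 between the hairpins kept their direction and their side of the threshold. With the replicate block the OIS value of TOP2B was 0.12 and 8 of the 10 genes were called, SMC2 not among them (-0.60, adjusted p = 0.0767), the calls on AKAP8 and RAD21 were lost, and the cause was not tested. OIS shares only 2 letters, T and A, between its groups (correlations of 0.213 and 0.203), and libraries correlated best with their own letter in 0, 3 and 3 of 6 cases. With the replicate block and the GC correction together, 1 gene was called with shXPO7_3 and 1 with shXPO7_5, where the GC correction alone also called 1, and NCAPG with shXPO7_5 was 0.034 and 0.048. Between the hairpins the same 2 settings gave NCAPG2 0.16 and 0.16, NCAPH -0.0093 and -0.0083 and NCAPH2 -0.040 and -0.041, while upper-quartile scaling gave NCAPD3 0.0072 and NCAPG2 0.0073, none of them called. In OIS these 2 settings called 13 and 11 of the 16 cohesin genes. They called 10 and 10 of the other topoisomerase list, 7 higher and 3 lower in each. The GC correction alone called 63.9% of all genes in OIS, and its 11 of 16 cohesin genes lie near that share. The SMC5/6 list gave 5 calls with the block and the correction and 1 without the filter. Shares of all genes called in OIS with the block or without the filter are not given here. The block with the correction called 9 condensin regulators and partners with shXPO7_5 and 5 with shXPO7_3, at backgrounds of 6.26% and 2.51% of all genes. With the length of the longest transcript the vector levels were 74.7 TPM for NCAPD2, 33.9 for NCAPD3, 31.7 for NCAPH and 50.9 for NCAPH2.

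Leaving out 1 library gave 8 to 9 calls in OIS, 0 to 2 with shXPO7_5, and 0 to 0 both with shXPO7_3 and between the hairpins, and 1 to 2 SMC5/6 calls in OIS. The 2 calls with shXPO7_5 came without shXPO7_5/4OHT A, where 23.0% of all genes were called, a share near 2 of 10. Shares of all genes called in the other fits without 1 library are not given here. Values that changed sign ran from -0.39 to 0.053 for TOP2B in OIS, from -0.12 to 0.29 for SMC2, -0.028 to 0.19 for NCAPH2 and -0.052 to 0.22 for TOP2B with shXPO7_3, and from -0.15 to 0.053 for NCAPG2 and -0.025 to 0.077 for NCAPH between the hairpins. Fits that left 2 libraries in a group shared the spread of all groups. In OIS the standard errors of SMC2, SMC4, NCAPG, TOP2A and TOP2B, 0.25 to 0.39, were the widest of the 10 genes. The part of depth in them was not tested.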
